A study of Mus musculus with 6 samples.

Results

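The HoxD cluster is a row of 9 homeobox genes on mouse chromosome 2, with the related homeobox gene Evx2 at its 5′ end. The 10 genes were found by their Entrez identifiers among 24421 genes of a read-count table, and all 10 had a row. They were ordered by the ends of their RefSeq gene models (GRCm38), from Evx2 through Hoxd13, Hoxd12, Hoxd11, Hoxd10, Hoxd9, Hoxd8, Hoxd4 and Hoxd3 to Hoxd1, over 112.2 kb (chromosome 2, 74652989 to 74765142). Evx2 is transcribed from the minus strand and the 9 Hox genes from the plus strand.

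Hox genes encode homeodomain transcription factors that give cells along the body axis their positional identity. In embryos the genes of a cluster are switched on in the order in which they lie on the chromosome, and in cells outside their domains they are held silent by Polycomb complexes. Polycomb repressive complex 1 (PRC1) places ubiquitin on histone H2A through the E3 ligases Ring1 and Rnf2, and Hox clusters are among its best known targets. The genes near Hoxd13 pattern the distal limb and the genital and posterior trunk regions, and those near Hoxd1 act in more anterior regions.

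RNA was measured in mouse germinal vesicle (GV) oocytes, which are fully grown and arrested before meiosis resumes. The DKO oocytes had the genotype Ring1 -/-; Rnf2 f/f; Zp3-cre, in which a Cre transgene under the promoter of the zona pellucida gene Zp3, active in growing oocytes, targets the floxed Rnf2 alleles. The SKO oocytes had the genotype Ring1 -/-; Rnf2 f/f without the transgene. Ring1 was thus null in both genotypes, and no wild-type oocytes enter the comparison. Effects of the transgene and of the deletion cannot be told apart. Each genotype had 3 libraries, each made from 15 oocytes pooled from a single female of about 3 months on a mixed FVB, 129/Sv and C57BL/6J background. RNA was amplified before sequencing, so reads are not independent molecules and counting intervals cover counting error only.

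Total counts lay between 15521975 and 26652745 per library. Levels are given in CPM, read counts relative to TMM-scaled library sizes, and comparisons between genes in CPM per kb of the deposited gene length. Rnf2 itself stood at 56.3, 30.7 and 22.9 CPM in the DKO libraries, against 203, 180 and 187 CPM in the SKO libraries (log2 fold change -2.38, SE 0.30, edgeR adjusted p = 0.000349). All 12 oocyte markers examined were detected in every library, and their summed level was 11900 to 15400 CPM in DKO and 20800 to 22000 CPM in SKO. All 12 were tested, and 7 were called lower and 0 higher, with a median log2 fold change of -0.67. Over the whole table, 7.41% of tested genes were called lower and 17.3% higher. The summed level of 15 granulosa and cumulus markers was 265 to 295 CPM in DKO and 106 to 134 CPM in SKO. Of these markers, 11 were tested, 7 were called higher and 1, Cyp19a1, was called lower, beside 17.3% and 7.41% over the whole table. The 7 called higher were Fshr, Inhba, Nr5a2, Has2, Ptgs2, Wt1 and Gja1. Fshr, the receptor for follicle-stimulating hormone, stood at 28.2 to 33.3 CPM in DKO and 0.46 to 0.534 CPM in SKO. Ptgs2 stood at 79.2 to 96.8 CPM in DKO and 3.41 to 4.35 CPM in SKO. Ptx3, made by cumulus cells, had 0 counts in all 6 libraries, and Tnfaip6 had 1 count, in SKO replicate 1. Markers of theca, stroma and endothelium summed to 150 to 165 CPM in DKO and 130 to 174 CPM in SKO. Of the 11 tested, 5 were called higher and 1 lower, beside the same shares of the table. The 5 were Cyp11a1, Col1a1, Dcn, Pdgfra and Kdr, of which Col1a1 passed the filter only because of its DKO counts. The 1 called lower, Pecam1, had the highest level of these markers, at a mean of 60.9 CPM in DKO and 109 CPM in SKO, and weighed most in the sums. Blood markers summed to 5.04 to 9.39 CPM in DKO and 2.22 to 4.38 CPM in SKO, with the globin genes Hba-a1 and Hbb-bs at 0. The part of other cell types in the HoxD values was not tested.

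HoxD transcripts were higher in DKO oocytes at both ends and in the middle of the cluster, with weakly expressed or silent genes between them. Evx2, Hoxd13, Hoxd9, Hoxd8 and Hoxd1 rose by log2 fold changes of 3.82 to 6.45 (edgeR quasi-likelihood test, adjusted p from 2.12e-06 to 3.93e-05). Hoxd10 and Hoxd11 rose at much lower levels, and their calls depended on single libraries. Hoxd12, which lies between Hoxd13 and Hoxd11, was not called, and Hoxd3 and Hoxd4 had almost no counts in either genotype. In pooled oocytes, fewer expressing cells and less RNA per cell cannot be told apart.

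In all, 8 of the 10 genes passed the expression filter, 7 of them were called higher and 0 lower. The whole table had 17.3% of 14845 tested genes called higher and 7.41% called lower. The median log2 fold change of the 8 tested genes was 4.07, against 0.04 over all genes tested. Evx2, Hoxd11 and Hoxd10 passed the filter only because of their DKO counts, which in part fixes their direction and the median. With the table filtered on SKO libraries alone, the median over the 5 genes left was 4.38. Of the 5 genes that also passed on SKO libraries alone, 4 were called higher and 0 lower, where 12.8% of such genes in the table were called higher and 8.12% lower. The 7 called genes had all 3 DKO libraries above all 3 SKO libraries, as did 24.7% of all tested genes, called or not. The 7 were picked by their calls, which in part fixes this separation, so it adds no further support.

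**Figure D1:**
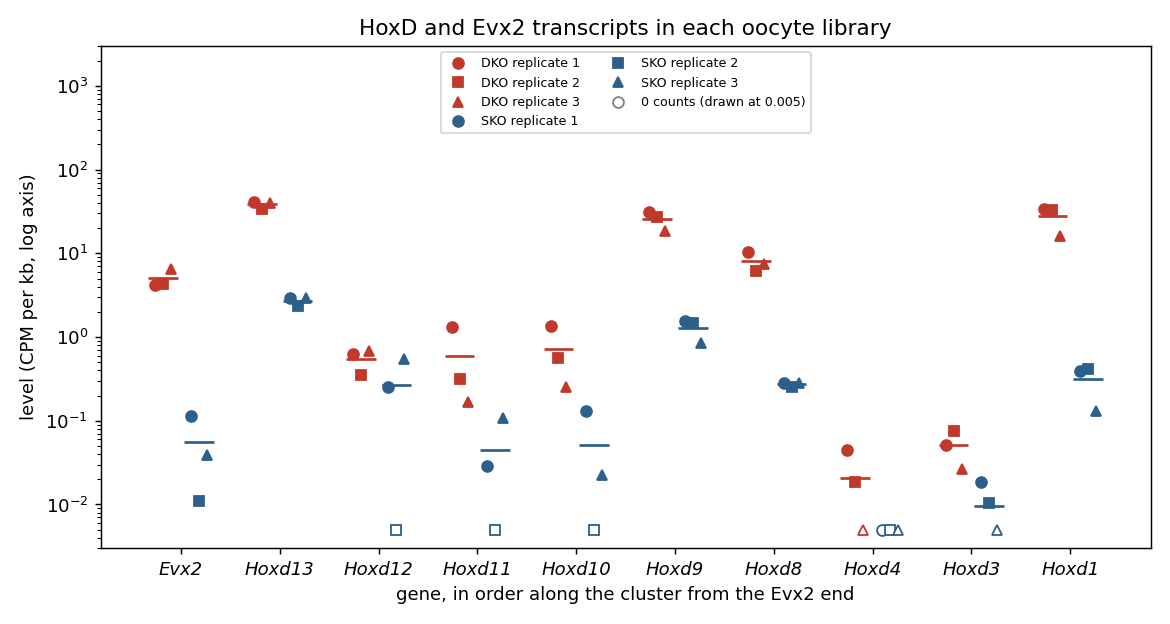
Level of each gene (CPM per kb, log axis) in the 3 DKO libraries (red, left of each pair) and the 3 SKO libraries (blue, right), with genes in order along the cluster. Horizontal lines are means of 3 mice and open symbols stand for 0 counts. Hoxd13, Hoxd9 and Hoxd1 reach 16.3 CPM per kb or more in every DKO library, while Hoxd3 and Hoxd4 stay below 0.1 in all 6 libraries.

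Hoxd13 (chromosome 2, 74668225 to 74671603), a regulator of digit and genital development, was the most abundant gene of the cluster in both genotypes. It had 103, 84.6 and 99.8 CPM in the DKO libraries, against 7.20, 5.75 and 7.31 CPM in the SKO libraries. The groups were far apart and the DKO libraries close together, with the highest only 1.22 times the lowest. The log2 fold change was 3.82 (SE 0.21, adjusted p = 2.12e-06, edgeR), a 14.2-fold difference. Hoxd13 was also the HoxD gene most clearly detected in SKO oocytes, with 179, 125 and 178 counts.

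Evx2 (74652989 to 74661520) encodes a homeodomain factor co-expressed with posterior HoxD genes in limb and genital buds. It had 17.5, 18.2 and 27.2 CPM in the DKO libraries, against 0.483, 0.046 and 0.164 CPM in the SKO libraries, whose counts were 12, 1 and 4. The highest DKO value was in replicate 3, and every DKO library was above every SKO library. The log2 fold change was 6.44 (SE 0.57, adjusted p = 3.93e-05, edgeR), and 7.51 without SKO replicate 1.

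At the 3′ end, Hoxd1 (74762980 to 74765142), a gene with roles in sensory neurons, had 63.1, 60.7 and 30.4 CPM in the DKO libraries, against 0.724, 0.782 and 0.246 CPM in the SKO libraries. Replicate 3 was the lowest library in both genotypes, and the groups did not overlap. The log2 fold change was 6.45 (SE 0.47, adjusted p = 1.07e-05, edgeR). The fold change of Hoxd1 was close to that of Evx2 at the other end of the cluster, 87.6-fold against 86.7-fold, at a higher level per length.

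In the middle of the cluster, Hoxd9 (74697763 to 74700208), which acts in limb and trunk patterning, had 66.1, 56.4 and 39.0 CPM in the DKO libraries, against 3.26, 3.08 and 1.77 CPM in the SKO libraries (log2 fold change 4.31, SE 0.33, adjusted p = 1.41e-05, edgeR). Its neighbour Hoxd8 (74704615 to 74707933), expressed in the embryonic trunk, had 22.5, 13.3 and 16.0 CPM in the DKO libraries, against 0.603, 0.552 and 0.616 CPM in the SKO libraries (log2 fold change 4.85, SE 0.36, adjusted p = 1.33e-05, edgeR). The SKO libraries of Hoxd8 were close to each other, at 12 to 15 counts, and for both genes every DKO library was above every SKO library.

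The posterior genes between Hoxd13 and Hoxd9 stayed low. Hoxd12 (74675013 to 74677705), a posterior gene that acts with Hoxd13 in limbs, had 1.59, 0.892 and 1.71 CPM in the DKO libraries, against 0.644, 0 and 1.40 CPM in the SKO libraries. The groups overlapped, because SKO replicate 3 was above DKO replicate 2, and SKO replicate 2 had 0 counts while SKO replicate 3 had 34. The log2 fold change was 1.02 with a 95% interval of -1.10 to 3.15 (SE 0.96, adjusted p = 0.473, edgeR), an interval that holds both falls and rises.

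Hoxd11 (74679558 to 74687016), needed for forearm and kidney development together with its HoxA paralog, had 5.58, 1.31 and 0.698 CPM in the DKO libraries, against 0.121, 0 and 0.452 CPM in the SKO libraries. DKO replicate 1 held most of the signal, 7.99 times the level of replicate 3, and replicate 3 was little above the highest SKO library. The log2 fold change was 3.66 (SE 1.09, adjusted p = 0.0337, edgeR). It was 2.34 with an adjusted p = 0.188 without DKO replicate 1, and the call was also lost without DKO replicate 2, SKO replicate 1 or SKO replicate 2 (adjusted p = 0.0511, 0.0995 and 0.0752). Without SKO replicate 3 it was 5.18, and the call held.

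Hoxd10 (74684273 to 74695106), which has a role in motor neurons of the lumbar spinal cord, had 2.5, 1.03 and 0.466 CPM in the DKO libraries, against 0.241, 0 and 0.0411 CPM in the SKO libraries. The DKO libraries stood in the same order as for Hoxd11, and Hoxd10 and Hoxd11 overlap in the annotation, so part of their reads may be shared. The log2 fold change was 3.70 (SE 1.05, adjusted p = 0.0277, edgeR). The call was lost without DKO replicate 1 (2.88, adjusted p = 0.125), DKO replicate 2, SKO replicate 2 or SKO replicate 3 (adjusted p = 0.0575, 0.0863 and 0.103), and the fold change was 5.59 without SKO replicate 1.

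Hoxd3 and Hoxd4, anterior genes that help to pattern the cervical vertebrae, were below the filter. Hoxd3 (74711993 to 74748271) had 4, 7 and 3 counts in the DKO libraries, against 2, 1 and 0 in the SKO libraries, a ratio of 5.12 with an exact 95% Poisson interval of 1.43 to 27.8. Hoxd4 (74721978 to 74729160) had 2, 1 and 0 counts in the DKO libraries and 0 in all 3 SKO libraries, which is at the floor in both genotypes and gives no fold. The gene model of Hoxd3 spans Hoxd4, so their few reads cannot be told apart. With no filter on low counts neither gene was called, with an adjusted p of 0.326 for Hoxd3 and 0.335 for Hoxd4 (edgeR). The Poisson interval of Hoxd3 lies above 1 but covers counting error only.

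The contrast between adjacent genes was large. The starts of Hoxd13 and Hoxd12 lie 6.8 kb apart, and in DKO oocytes Hoxd13 averaged 38.6 ± 3.94 CPM per kb and Hoxd12 0.552 ± 0.174 CPM per kb (SD, n = 3). Hoxd8 and Hoxd4, adjacent in the order by gene ends, averaged 7.99 ± 2.19 and 0.0209 ± 0.0223 CPM per kb. Their starts lie 17.4 kb apart, with the start of Hoxd3 between them. Hoxd9 averaged 25.6 ± 6.53 CPM per kb, 35.5 times the level of Hoxd10, and their starts lie 5.9 kb apart. Starts here are those of the promoter windows below. For Hoxd10 and Evx2 they lie inside the gene models, at 74691891 and 74659557.

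The RefSeq sequences of the 250 bases before the start of 4 of these genes are shown as examples of opposite outcomes. Hoxd13 and Hoxd1 are high in DKO oocytes, and Hoxd12 and Hoxd4 are not. Hoxd12 is the neighbour of Hoxd13, while Hoxd4 follows Hoxd8, which rose and is not shown, in the order by gene ends. By start, Hoxd3 lies between Hoxd8 and Hoxd4. The windows not shown, described below, did not follow the same split. CpG dinucleotides (the letters CG), which are dense at many Polycomb targets, are in capitals, and sequences run 5′ to 3′ on build GRCm38.p6.
Hoxd13 (chr2:74667975-74668224, plus strand): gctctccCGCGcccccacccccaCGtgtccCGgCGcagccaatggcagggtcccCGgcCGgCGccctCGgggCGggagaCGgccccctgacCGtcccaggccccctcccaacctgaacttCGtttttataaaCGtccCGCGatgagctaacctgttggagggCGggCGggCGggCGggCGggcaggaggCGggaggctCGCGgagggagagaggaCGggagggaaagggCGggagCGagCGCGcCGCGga
Hoxd12 (chr2:74674763-74675012, plus strand): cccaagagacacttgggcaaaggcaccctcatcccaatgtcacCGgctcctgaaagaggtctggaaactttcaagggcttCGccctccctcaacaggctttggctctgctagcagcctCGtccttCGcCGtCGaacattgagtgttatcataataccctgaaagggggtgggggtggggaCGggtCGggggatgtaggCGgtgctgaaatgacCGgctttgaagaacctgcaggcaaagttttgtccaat
Hoxd4 (chr2:74721728-74721977, plus strand): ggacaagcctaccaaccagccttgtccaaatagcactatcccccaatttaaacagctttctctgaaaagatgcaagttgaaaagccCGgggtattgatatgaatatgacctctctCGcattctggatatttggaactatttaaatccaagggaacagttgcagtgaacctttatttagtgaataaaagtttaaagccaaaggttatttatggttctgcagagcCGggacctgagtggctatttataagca
Hoxd1 (chr2:74762730-74762979, plus strand): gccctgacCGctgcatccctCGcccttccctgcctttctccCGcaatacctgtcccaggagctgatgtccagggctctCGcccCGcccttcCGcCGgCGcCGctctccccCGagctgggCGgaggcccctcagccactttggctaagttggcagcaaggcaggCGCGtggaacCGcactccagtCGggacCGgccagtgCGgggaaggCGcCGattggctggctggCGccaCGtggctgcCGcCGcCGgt

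All 10 genes matched the promoter table, with 11 windows because Hoxd11 has a pair of starts. The Hoxd13 window holds 31 CG, a number that 5.19% of all 32851 windows of the table reach, and the Hoxd1 window holds 24, which 12% reach. The Hoxd12 window holds 10, reached by 37.8%, and the Hoxd4 window 3, reached by 71%. The other windows did not follow the same split. Hoxd8, which rose, has 6 CG, the median of the table, Hoxd9 has 13 and Evx2 14, while the scarce Hoxd10 and Hoxd3 have 20 and 12, and Hoxd11 has 2 and 20. The letters TATAAA, searched on both strands, are found before Hoxd13 (on both strands, overlapping), Evx2 and Hoxd4, and in 12.4% of all windows. A match is a description of the letters in the window.

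The order of the genes by level per length was partly shared between the genotypes. In DKO oocytes Hoxd13 led, Hoxd1 and Hoxd9 followed with overlapping libraries, then Hoxd8 and Evx2, which also overlapped, then Hoxd10, Hoxd11 and Hoxd12, each overlapping the next, and last Hoxd3 and Hoxd4. In SKO oocytes Hoxd13 led as well, at 2.72 ± 0.35 CPM per kb (SD, n = 3), followed by Hoxd9 at 1.29 ± 0.389 CPM per kb. Hoxd1, at 0.314 ± 0.158 CPM per kb in SKO, was among the low genes there with Hoxd8 and Hoxd12. Summed over the 10 genes, the level was 125, 105 and 90.1 CPM per kb in the DKO libraries, against 5.67, 4.48 and 4.92 CPM per kb in the SKO libraries. Hoxd13 made up 33.2%, 32.3% and 44.6% of that sum in the DKO libraries, against 51.2%, 51.7% and 59.8% in the SKO libraries.

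The smaller share of Hoxd13 went with larger relative levels of other genes, which do not depend on the scaling of libraries. The level of Hoxd1 over that of Hoxd13 was 0.818, 0.958 and 0.406 in the DKO libraries, against 0.134, 0.181 and 0.0449 in the SKO libraries, a log2 difference of 2.73. Evx2 over Hoxd13 was 0.101, 0.128 and 0.161 in the DKO libraries, against 0.0397, 0.00474 and 0.0133 in the SKO libraries, a log2 difference of 3.23. The SKO ratios of Evx2 rest on 12, 1 and 4 counts, and Evx2 passed the filter only because of its DKO counts. All 4 genes set over Hoxd13 were called higher, so the ratios draw on the same values as their fold changes. In both ratios every DKO library was above every SKO library. Hoxd8 over Hoxd13 was 0.251, 0.181 and 0.185 in the DKO libraries, against 0.0963, 0.110 and 0.0969 in the SKO libraries, a log2 difference of 1.01. Hoxd9 over Hoxd13 overlapped between the genotypes, with a log2 difference of 0.50. In two-sided exact permutation tests the first 3 ratios had p = 0.1, the smallest that 3 libraries against 3 allow, and Hoxd9 had p = 0.3 (0.133 and 0.3 adjusted over the 4 ratios), so this test could not have called any of them.

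**Figure D2:**
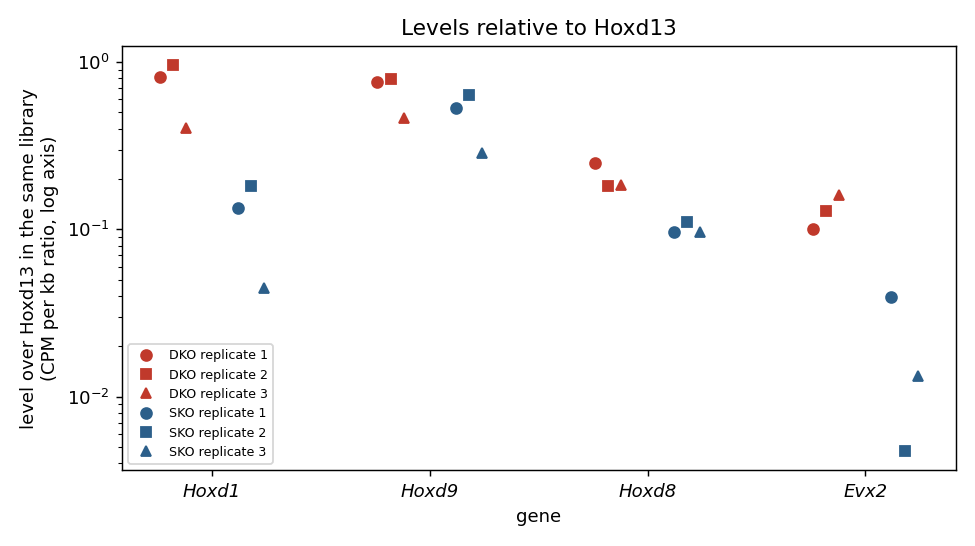
Level of Hoxd1, Hoxd9, Hoxd8 and Evx2 over the level of Hoxd13 in the same library (ratio of CPM per kb, log axis), with DKO libraries in red on the left and SKO libraries in blue on the right. For Hoxd1, Hoxd8 and Evx2 the 3 DKO points lie above the 3 SKO points, and for Hoxd9 they overlap.

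Levels showed no steady gradient along the cluster. Spearman's rho of the order from Evx2 to Hoxd1 with the level per length was -0.164 in DKO and -0.224 in SKO over the 10 genes, and 0.357 with the log2 fold change over the 8 tested genes, as a description of genes that share libraries and a chromosomal cluster. The largest fold changes were at the ends, with 6.44 for Evx2 and 6.45 for Hoxd1, and the smallest among tested genes was 1.02 for Hoxd12.

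**Figure D3:**
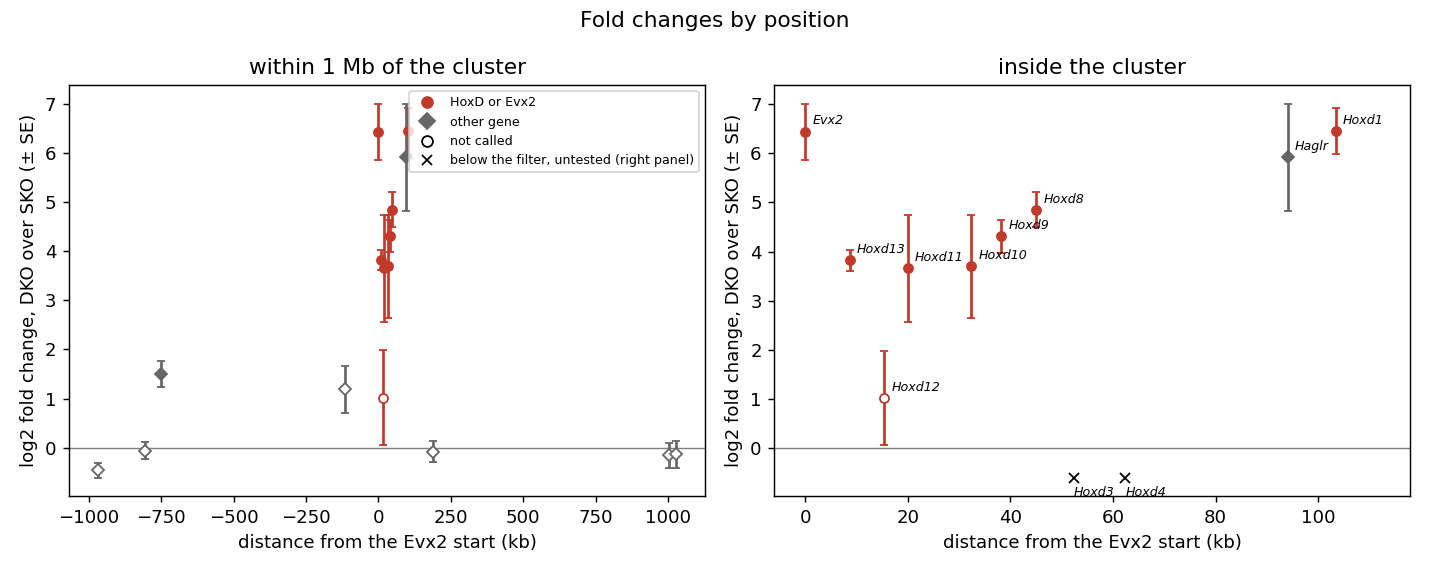
Log2 fold change, DKO over SKO, with its standard error, by distance from the Evx2 start (kb), within 1 Mb of the cluster (left) and inside it (right). HoxD genes and Evx2 are red circles at their starts, other genes are grey diamonds at their midpoints, open symbols were not called and crosses mark untested genes. The called genes lie between Evx2 and Hoxd1, apart from Atp5g3 at 1.5, and the flanking genes Lnpk and Mtx2 were not called.

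Beyond the cluster, within 1 Mb of its ends, the table held 9 genes, of which 7 were tested, 1 was called higher and 0 lower, beside 17.3% called higher over the whole table. Their median log2 fold change was -0.08. The flanking gene on the Evx2 side is Lnpk, which encodes an endoplasmic reticulum protein and shares limb enhancers with the cluster. It had 19.0, 8.59 and 5.12 CPM in the DKO libraries, against 6.15, 4.93 and 3.20 CPM in the SKO libraries, with overlapping groups and a log2 fold change of 1.19 (SE 0.48, adjusted p = 0.0969, edgeR). It passed the threshold with DESeq2 (adjusted p = 0.0418), without DKO replicate 3 (0.0264) and with the replicate number as a block (0.0437). Mtx2, a mitochondrial import gene on the Hoxd1 side, had 26.2, 19.9 and 23.5 CPM in the DKO libraries, against 25.9, 23.6 and 24.3 CPM in the SKO libraries (log2 fold change -0.08, SE 0.21, adjusted p = 0.808, edgeR). Atp5g3, which encodes a subunit of mitochondrial ATP synthase and lies 740.5 kb beyond the Evx2 end, rose by 1.5 (SE 0.26, adjusted p = 0.00212, edgeR).

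Of the noncoding genes inside the cluster, Haglr, an antisense RNA that starts next to Hoxd1, was called higher. It had 53, 15 and 64 counts in the DKO libraries, against 0, 2 and 0 in the SKO libraries, a ratio of 72.4 with an exact 95% Poisson interval of 19.7 to 604. Its fitted log2 fold change was 5.92 (SE 1.09, adjusted p = 0.00319, edgeR), and 8.55 without SKO replicate 2, which held all SKO counts. Haglr passed the filter only because of its DKO counts. No source used here states whether counting used strand, so reads of sense and antisense transcripts that overlap cannot be told apart. Hoxd3os1 had 2, 2 and 7 counts in the DKO libraries, against 2, 1 and 0 in the SKO libraries. Gm14424, within Haglr, and the microRNA gene Mir10b, near Hoxd4, had 3 and 1 counts in DKO replicate 1 and 0 in the other 5 libraries, and these 3 genes were untested.

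The called HoxD genes varied between DKO animals, in a partly shared order and by different amounts. Among the 7 called genes, DKO replicate 1 was the highest library for 6, with Evx2 as the exception, and replicate 3 was the lowest for 4. Of all genes called higher in the table, 42.5% had replicate 1 highest. The ratio of the highest to the lowest DKO library was 1.22 for Hoxd13, 1.55 for Evx2, 1.69 for Hoxd9 and Hoxd8, 2.08 for Hoxd1, 5.38 for Hoxd10 and 7.99 for Hoxd11, beside a median of 1.73 over all genes called higher. Replicate 1 was also the DKO library with the most Rnf2 counts left, 989 against 654 and 589 in the other DKO libraries, and a relation between both was not tested.

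**Figure D4:**
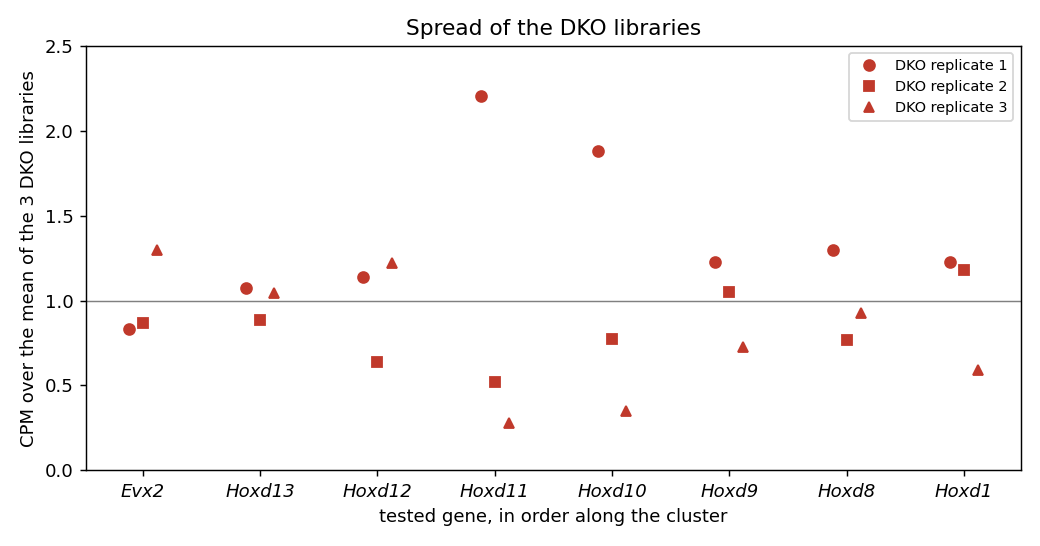
CPM of each tested gene in the 3 DKO libraries, divided by the mean of the 3 (no unit). Hoxd13 libraries lie close to 1, while replicate 1 stands above the others for Hoxd11 and Hoxd10, and replicate 3 is the lowest for Hoxd1 and the highest for Evx2.

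Hox genes of the other clusters moved the same way. Of 30 HoxA, HoxB and HoxC genes, 16 were tested and 14 were below the filter. Among those tested, 15 were called higher and 0 lower, beside 17.3% called higher over the whole table. Their median log2 fold change was 4.39. Of the 16, 10 passed the filter only because of their DKO counts, which in part fixes their direction and the median. The 6 that also passed on SKO libraries alone were all called higher, beside 12.8% of such genes in the table. Hoxc13, at 24.8 ± 1.01 CPM in DKO oocytes and 1.40 ± 0.675 CPM in SKO oocytes (SD, n = 3 each), rose by 4.13. Hoxa10, which did not pass on SKO libraries alone, rose by 5.54, and Hoxc10, which did not pass either and had 1 SKO count, had a ratio of 227 (exact 95% Poisson interval 40.3 to 9020). Of 15 caudal and retinoic acid pathway genes, which act upstream of Hox genes in embryos, 9 were tested, with a median of 0.96. Among these 9, 5 were called higher and 0 lower, beside 17.3% called higher over the whole table. Of the 6 that also passed on SKO libraries alone, 3 were called higher, beside 12.8% of such genes in the table. The retinaldehyde dehydrogenase genes Aldh1a3, tested only because of its DKO counts, and Aldh1a2 rose by 4.30 and 1.28, and the retinoid receptor gene Rxra by 0.94 (adjusted p = 0.0014, 0.0015 and 0.00418, edgeR).

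The mean profile of the 8 tested genes, each centred on its own mean on the log2 scale, was 2.56, 1.90 and 1.72 in the DKO libraries, against -1.61, -2.69 and -1.88 in the SKO libraries. The 5 tested genes outside the cluster with the smallest root mean square distance to it over the 6 libraries were Creg2, Pla2g4a, Adamtsl3, Tmem179 and Gprc5b, at 0.146 to 0.276 log2 units. Hoxd13 itself was at 0.355 and Hoxd12 at 1.59. Creg2 averaged 20.6 ± 5.98 CPM in DKO oocytes and 1.0 ± 0.256 CPM in SKO oocytes (SD, n = 3 each), and the phospholipase gene Pla2g4a 7.72 ± 2.26 CPM in DKO and 0.317 ± 0.155 CPM in SKO.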

How the data were processed

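RNA-seq of 6 pooled oocyte samples was analysed from raw, unnormalized read counts that the authors deposited for each Entrez gene beside its length in bases, per the file headers. The submitters' processing notes name the aligner STAR 2.5.0a and 2 builds, GRCm38 and mm10. How reads were counted (program, annotation, strand, multiple alignments) is not stated there. Of 24421 identifiers, 24387 matched RefSeq (GRCm38.p6), which gave symbols and coordinates, and promoter sequences are also from RefSeq.

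Genes were filtered with filterByExpr (minimum count 10, minimum total 15), which kept 14845, scaled with TMM and tested with the two-sided quasi-likelihood test of edgeR 4.0.16 in R 4.3.3, and p-values were adjusted over all tested genes by Benjamini-Hochberg. Calls had an adjusted p under 0.05. Fold changes are DKO over SKO, and standard errors come from the F statistic, which can be too small where counts are few. A gene passed on SKO alone with at least 10 counts in 2 SKO libraries. The floor of 3 counts was 0.116 to 0.171 CPM. The code was tested on simulated data.

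The genes, lists and naming rules (all 10 genes, every listed gene between the flanking genes and both flanks, up to 3 called genes of each other list, and the 5 nearest profiles) were chosen with earlier results of these data known. Alternatives were other scalings and filters, DESeq2 1.42.0, limma 3.58.1 voom, a replicate block and leaving out each library. Protein sequences were not used here. Results for genes of Hox partner proteins are not reported here.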

Additional observations from a re-analysis of the deposited data

How the results depend on the processing

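The calls and directions of Evx2, Hoxd13, Hoxd9, Hoxd8 and Hoxd1 were the same under every alternative that tested them, with adjusted p up to 0.000686 (Evx2 fell below the filter on SKO libraries alone), and Hoxd12 was never called, with adjusted p of 0.14 to 0.727. With the filter on SKO libraries alone, 5 HoxD genes were tested and 4 called higher, and leaving out 1 library gave 5 to 7 calls. The median log2 fold change was 3.73 without a filter, when Hoxd3 and Hoxd4 enter, 4.61 with a minimum count of 30, when 6 genes are left, and 3.95 to 4.65 with 1 library left out. Over these leave-outs Hoxd11 had 2.34 to 5.18 and Hoxd10 2.88 to 5.59. The rho of position with fold change was 0.03 without a filter, 0.90 over the 5 genes of the SKO filter, -0.08 with DESeq2 and 0.10 to 0.48 with 1 library left out, so it is no stable description; the cause of the sign change was not tested. Among the 13 other genes within 1 Mb, those inside the cluster included, 2 were called higher, Haglr and Atp5g3, and 1 was called higher with the stricter filter and 1 with the SKO filter, since Haglr was no longer tested, and 1, Chn1, was called lower with DESeq2 size factors, with DESeq2 and with limma voom, and 0 to 1 with 1 library left out. Of the other Hox genes 9 and 6 were called higher with these filters, as fewer were tested. Library totals in place of TMM shifted the median log2 fold change over the table from 0.04 to 0.20 and the share of calls that were higher from 70% to 82.9%, and HoxD had the same 7 rises and 0 falls. Same-numbered DKO and SKO libraries deviated together with r = 0.14, 0.08 and 0.05, each best with its own number, but the labels give no pairing. The replicate block gave 7 HoxD genes called higher and a median of 4.14, and changed no HoxD call. Low counts limit what can be said of Hoxd3 and Hoxd4, which had 14 and 3 counts over the DKO libraries and 3 and 0 over the SKO libraries.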
